A study of Mus musculus with 12 samples.

Results

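Round spermatids (RS) of Pan2 knockout mice were compared with spermatocytes at the MII stage of the same genotype, gene by gene. The comparison took in the 3 KO RS libraries and the 3 KO MII libraries, chosen by the stage and genotype in their labels, which made 6 of the 12 libraries of the series. The other 6 came from wildtype (WT) mice, 3 of RS and 3 of MII cells, and served here only to show where the KO change stood apart. The labels write the KO genotype as Pan2flox/-;Stra8-Cre: the mice carried 1 deleted and 1 floxed Pan2 allele, and the Stra8 promoter, which turns on in germ cells at the entry into meiosis, drove the Cre recombinase. No treatment, strain or age is given, and nothing states whether animals were pooled or whether the replicates came from separate animals. The p-values therefore rest on library-to-library spread only, and that spread may be technical.

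MII spermatocytes, also called secondary spermatocytes, are the short-lived cells between the 2 meiotic divisions. The division that follows separates sister chromatids and gives haploid round spermatids, which stop dividing and begin to build the acrosome and the flagellum. PAN2 is the catalytic subunit of the PAN2-PAN3 deadenylase, which trims the poly(A) tails of mRNAs, and many spermatid mRNAs are kept for later translation in part through their tails. Cells had been collected by FACS and their RNA made into Smart-seq2 libraries, in which reverse transcription starts on poly(A) with an oligo(dT) primer. A count therefore depends on how much RNA is present and on how well its tail is captured, and it measures neither tail length nor translation.

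The KO RS libraries held 31862857, 29218445 and 24326972 counts over all genes, and the KO MII libraries 24207417, 38652066 and 23056376. Levels are given as CPM, which is the count divided by the library's TMM-scaled size, which can be compared between libraries but not between genes of different length. The library labelled KO RS replicate 1 stood apart. Pan2 itself was at 22.6 CPM there, the highest of the 12 libraries, and at 4.73 and 3.52 CPM in the other two KO RS libraries, against 5.57, 7.10 and 5.07 CPM in KO MII cells. The stage change of Pan2 was 0.80 on the log2 scale (SE 0.55, edgeR quasi-likelihood adjusted p = 0.385), and -0.52 without that library (adjusted p = 0.256). That library also had the highest sum of Sertoli cell markers among the KO RS libraries. Counts are therefore given with and without it. The depth limits low genes most, and 37839 of the 55291 genes in the table had a count, of which 21291 were tested.

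The markers of the labelled stages were only partly separated. Round spermatid markers (22 genes) summed to 12800, 13200 and 11700 CPM in KO RS libraries and already to 10800, 10800 and 9830 CPM in KO MII libraries. Division markers of secondary spermatocytes (16 genes) summed to 1620, 1800 and 1890 CPM in KO RS and to 2070, 2610 and 2590 CPM in KO MII. Of these 2 lists 4 and 0 genes were called higher and 0 and 7 lower. That was 18.2% higher in the first and 43.8% lower in the second, against 4.16% and 8.17% of all genes. The groups did not overlap in either sum, but both sets of transcripts were abundant in both fractions. A stage change here is therefore a change between 2 sorted fractions, and fewer cells of a type and less RNA per cell cannot be told apart in bulk libraries.

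In KO cells, more genes were lower than higher in round spermatids. Of 21291 genes tested, 2625 passed the threshold of an adjusted p under 0.05 in edgeR's quasi-likelihood test, 12.3% of the genes tested. The 885 that were higher made up 4.16% and the 1740 that were lower 8.17%. The falls were also the larger changes, with a median of -1.09 on the log2 scale against 0.67 for the rises. At least 2-fold changes were found for 88 higher and 967 lower genes, and at least 4-fold changes for 4 higher and 347 lower genes. Of the lower genes, 37 had no count in any KO RS library. Set against a floor of 3 counts over the group, 345 of the lower genes were still at least 4-fold down. Over all genes the median was -0.01.

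Without the library labelled KO RS replicate 1, 1680 of 21811 genes passed the threshold, or 7.70%, with 359 higher (1.65%) and 1321 lower (6.06%). Of the main calls, 352 of the rises (39.8%) and 1131 of the falls (65%) were called again. The total was 1096 without KO RS replicate 2 and 1669, 1559 and 1682 without KO MII replicate 1, 2 and 3. Scaling by the total count alone gave 601 higher and 1955 lower genes, so that 23.5% of calls were rises instead of 33.7%. The larger number of falls held in these settings.

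**Figure D1:**
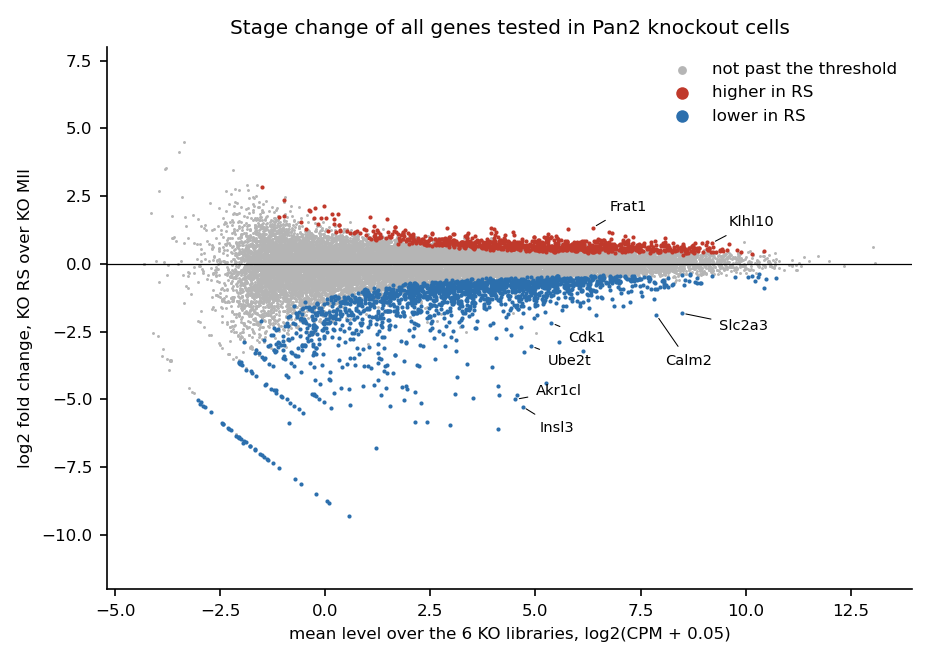
Log2 fold change of KO RS over KO MII against the mean level over the 6 KO libraries, log2(CPM + 0.05), for the 21291 genes tested; red points are the 885 genes higher in RS, blue points the 1740 lower in RS (adjusted p under 0.05). Falls reach further from 0 than rises, and the slanted rows at low levels hold genes with no or few counts in KO RS.

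Many genes that carry out chromosome segregation fell. Kinetochore, chromosomal passenger and spindle genes had 25 of 52 tested members lower and 0 higher, with a median of -0.61. Anaphase-promoting complex and spindle checkpoint genes had 9 of 31 lower and 0 higher (median -0.30). Cell cycle kinases, cyclins and phosphatases of meiosis had 8 of 33 lower and 0 higher (median -0.17). The share of all genes called lower was 8.17%, and their median -0.01.

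These counts changed with single libraries left out. Such a fit also has fewer libraries, and how much of a drop came from that was not tested. Of the kinetochore and spindle genes 16, 13, 16 and 15 were lower without KO RS replicate 1, KO RS replicate 2, KO MII replicate 2 and KO MII replicate 3. Without KO RS replicate 1 the checkpoint list had 7 and the kinase list 6 lower members, and the kinase list had 5 without KO MII replicate 2. No member of the 3 lists was called higher in any of these fits.

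Promoter sequences are shown for the division genes Cdk1 and Ndc80, for Ube2t, another of the largest falls, and for Frat1, the largest named rise. Division genes often carry CCAAT boxes and a TTTGAA element ahead of their start. Ube2t is in none of the division lists and is not counted among the division genes below. Each sequence is the 150 bases ahead of the RefSeq start in GRCm38.p6, on the strand of the gene. Capitals mark the CCAAT box, the element spelled TTTGAA and the half-site TGACG of CREM-type factors. Matches on either strand were taken, so that a CCAAT box can read ATTGG and the half-site CGTCA, and neighbouring matches may share a base.
Cdk1, minus strand, chr10:69352913-69353062: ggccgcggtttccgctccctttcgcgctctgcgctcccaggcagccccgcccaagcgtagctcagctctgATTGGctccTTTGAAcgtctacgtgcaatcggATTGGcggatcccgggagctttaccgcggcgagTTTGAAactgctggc
Ube2t, plus strand, chr1:134962415-134962564: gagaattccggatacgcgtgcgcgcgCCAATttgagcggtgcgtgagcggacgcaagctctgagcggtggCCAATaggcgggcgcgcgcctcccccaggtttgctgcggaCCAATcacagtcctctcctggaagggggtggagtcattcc
Ndc80, minus strand, chr17:71526858-71527007: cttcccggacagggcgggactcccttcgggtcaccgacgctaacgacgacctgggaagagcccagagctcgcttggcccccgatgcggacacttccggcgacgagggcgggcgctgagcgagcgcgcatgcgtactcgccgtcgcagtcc
Frat1, plus strand, chr19:41829820-41829969: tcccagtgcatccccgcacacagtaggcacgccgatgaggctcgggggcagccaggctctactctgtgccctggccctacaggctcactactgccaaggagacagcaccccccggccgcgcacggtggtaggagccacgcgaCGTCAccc

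The Cdk1 window held 2 CCAAT and 2 TTTGAA matches, that of Ube2t 3 CCAAT matches, that of Ndc80 none of the 3 motifs and that of Frat1 1 TGACG. Among division genes with a promoter in the table, CCAAT stood in 20 of the 38 called lower (52.6%) and in 54.5% of the 99 tested. TTTGAA stood in 26.3% of the division genes called lower and in 20.2% of those tested. Over all 27025 promoters the shares were 27.7% for CCAAT and 10.5% for TTTGAA. Genes called lower had CCAAT in 32.2% and genes called higher in 31.4%, close to the 29.8% of all tested genes with a promoter. CCAAT stood in 5 and TGACG in 3 of the 10 named rises with a promoter. TGACG stood in 19.8% of genes called higher, 20.2% of tested genes and 15% of all promoters.

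Cdk1 encodes the kinase that drives entry into division, on chromosome 10 from 69335146 to 69352938 (minus strand, mm10). Its level was 15.5, 13.9 and 15.7 CPM in KO RS and 55.4, 80.1 and 68.2 CPM in KO MII, so that every RS library was far below every MII library. The log2 fold change was -2.18 (SE 0.20, adjusted p = 2.65e-06). Fbxo43, the EMI2 protein that restrains the anaphase-promoting complex between the meiotic divisions, was at 4.31, 1.93 and 3.73 CPM in KO RS and at 13.1, 16.6 and 14.8 CPM in KO MII (log2 fold change -2.16). Cdk2, a kinase with roles in meiotic prophase, and Cdkn2d, a CDK inhibitor, fell by 1.00 and 1.31.

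Ndc80, the kinetochore subunit that grips microtubules, was at 12.7, 11.4 and 13.1 CPM in KO RS and at 46.5, 56.4 and 47.5 CPM in KO MII (log2 fold change -2.02, SE 0.16, adjusted p = 6.74e-07). Cep55, a midbody protein of abscission and of the bridges between germ cells, was at 5.59, 5.59 and 6.02 CPM in KO RS and at 22.8, 29.0 and 26.3 CPM in KO MII (-2.18). Cdca8 and Aurkb, 2 members of the chromosomal passenger complex, fell by 1.71 and 1.64. Among checkpoint genes, Sgo2a, the shugoshin that protects centromeric cohesin, fell by 1.70 (35% of its exon bases lie in exons of Kctd18 too) and Bub3 by 1.39. Pttg1, securin, fell by 1.27 and Bub1b by 1.20. In each of these genes the 3 KO RS libraries lay below the 3 KO MII libraries. For Ndc80, as for Cdk1, this was a condition of being named among the largest falls. The others were named for a small adjusted p, which favours such a gap. Each call held without any 1 of the 12 libraries. Ube2t, a ubiquitin-conjugating enzyme of the Fanconi anaemia repair pathway, was at 8.42, 4.87 and 6.02 CPM in KO RS and at 46.7, 61.4 and 50.4 CPM in KO MII (-3.03, SE 0.28, adjusted p = 2.65e-06).

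**Figure D2:**
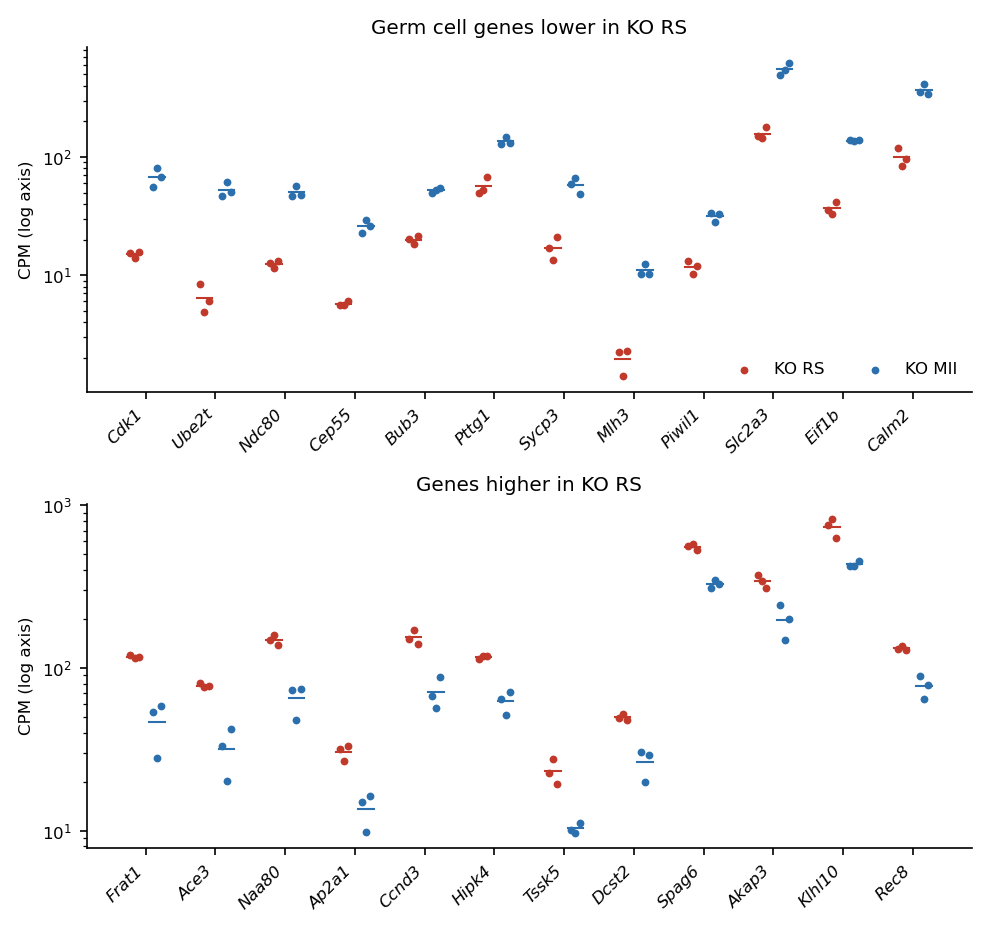
CPM (log axis) in each KO RS library (red, left in each pair) and each KO MII library (blue, right), 3 points a group with a bar at the group mean, for 12 germ cell genes lower in RS (upper panel) and 12 genes higher in RS (lower panel). The groups do not overlap in any of these genes. That was a condition for those named as largest rises or falls, and the others were named for a small adjusted p. The gap is wider for falls such as Cdk1 (-2.18) than for rises such as Klhl10 (0.76).

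Some genes of meiotic prophase also fell. Of 48 tested genes for the synaptonemal complex, cohesin and recombination, 7 were lower and 1 higher, with a median of -0.23. These shares were 14.6% and 2.08%, against 8.17% and 4.16% of all genes. Mlh3, a crossover resolution factor, was at 2.22, 1.40 and 2.29 CPM in KO RS and at 10.2, 12.4 and 10.3 CPM in KO MII (log2 fold change -2.48, SE 0.26, adjusted p = 6.91e-06). Sycp3, of the lateral element of the synaptonemal complex, with 52.2% of its exon bases also in exons of Chpt1, was at 16.9, 13.4 and 20.9 CPM in KO RS and at 58.9, 66.8 and 48.3 CPM in KO MII (-1.77). Hormad1, an axis protein, fell by 1.46. The exception was Rec8, the meiotic cohesin subunit, at 130.4, 136 and 129.7 CPM in KO RS and at 89.8, 64.5 and 78.1 CPM in KO MII (0.77, adjusted p = 0.00285). These 4 calls held without any 1 library. Lower prophase genes numbered 4, 3, 3 and 4 without KO RS replicate 1, KO RS replicate 2, KO MII replicate 2 and KO MII replicate 3. Higher prophase genes numbered 3, 3, 2 and 3 without WT RS replicate 3 and WT MII replicate 1, 2 and 3. Of the markers of leptotene to pachytene spermatocytes, 2 of 22 were higher and 5 lower (median -0.26), with 1 higher without KO RS replicate 2 or KO MII replicate 2. These shares were 9.09% and 22.7%, against 4.16% and 8.17% of all genes. Sycp3, Hormad1, Piwil1 and Spag6 are among these markers and are counted in other lists too.

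The rises were smaller and spread over many functions. Frat1, which binds GSK3 in Wnt signalling, was the largest among the genes named by the rule, at 119.7, 116 and 117 CPM in KO RS and at 53.5, 28.0 and 58.8 CPM in KO MII (log2 fold change 1.33, SE 0.23, adjusted p = 0.000942). Ace3, a relative of angiotensin-converting enzyme, was at 80.6, 76.0 and 77.3 CPM in KO RS and at 33.3, 20.3 and 42.2 CPM in KO MII (1.29). The RS libraries were close to each other in both genes, and the MII libraries were more spread, with replicate 2 the lowest. Naa80, the enzyme that acetylates the start of actin and shares 60.9% of its exon bases with Hyal1, rose by 1.19, and Ap2a1, of clathrin-coated vesicles, by 1.17. Ccnd3, a D-type cyclin, was at 151, 171 and 140.4 CPM in KO RS and at 67.3, 56.7 and 88.6 CPM in KO MII (1.12). Smad6, an inhibitor of BMP signalling, and Znrf3, a ligase that clears Wnt receptors, rose by 1.00 and 0.99. Each of these rises was called in all 21 alternative runs tested per gene. Being called without KO RS replicate 1 was a condition of the rule that took them.

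Genes for sperm structures rose in small numbers. Of 74 tested acrosome genes, 10 were higher and 1 lower, with a median of 0.23. Fibrous sheath, outer dense fibre and CatSper genes had 7 of 50 higher and 3 lower (median 0.23). Axoneme, dynein and manchette genes had 6 of 112 higher and 5 lower (median 0.05), which as a share of calls (9.82%) was below that of all genes (12.3%). Testis-specific kinases and spermatid signalling genes had 6 of 32 higher and 2 lower (median 0.07). The share of all genes called higher was 4.16%.

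These counts also moved with a library left out, in fits that hold fewer libraries. Without KO RS replicate 1 the higher members numbered 4 for the acrosome, 1 for the fibrous sheath list, 3 for the axoneme list and 3 for the kinases. Without KO RS replicate 2 they numbered 2, 1, 2 and 2. Acrosome rises numbered 5, 3 and 5 with KO MII replicate 1, 2 and 3 left out, and leaving out WT RS replicate 1 gave 6. Fibrous sheath rises numbered 3 without KO MII replicate 2 or 3, and kinase rises 2 without KO MII replicate 3. Axoneme rises numbered 3 without KO MII replicate 2 and 11 without WT MII replicate 3. Lower members of the axoneme list numbered 1, 0 and 3 without KO RS replicate 1, 2 and 3 and 1, 2 and 2 without KO MII replicate 1, 2 and 3. The fibrous sheath list had 0 lower members without KO MII replicate 2 and 1 without KO RS replicate 1 or 2, replicate 1 or 3 of KO MII, or replicate 1 of WT RS or of WT MII. The kinase list had 1 lower member without any 1 of the KO libraries or WT RS replicate 1.

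Dcst2, a sperm membrane protein needed for fertilisation, was at 49.3, 52.5 and 48.1 CPM in KO RS and at 30.3, 19.8 and 29.4 CPM in KO MII (log2 fold change 0.92, SE 0.17, adjusted p = 0.00155). Tmem95, another fertilisation factor, rose by 0.61. Actl7a, an actin-related protein of the acrosome, rose by 0.68 (adjusted p = 0.0116), a call lost without KO RS replicate 2 (0.0852). The 1 lower acrosome gene, Gopc, a Golgi protein needed for acrosome formation, was at 5.14, 3.98 and 5.21 CPM in KO RS and at 9.27, 13.4 and 12.9 CPM in KO MII (-1.31). For the flagellum, Spag6 of the central pair was at 559, 581 and 534 CPM in KO RS and at 309, 347 and 326 CPM in KO MII (0.77, adjusted p = 0.000686). Akap3, an anchoring protein of the fibrous sheath, was at 375, 344 and 311 CPM in KO RS and at 244, 148 and 199.7 CPM in KO MII (0.80). In both genes no RS library overlapped an MII library, which their choice by a small adjusted p favours.

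Among kinases, Hipk4, needed for shaping the spermatid head, was at 113, 118 and 119 CPM in KO RS and at 64.3, 51.6 and 71.2 CPM in KO MII (0.91, adjusted p = 0.0004). Tssk5 rose by 1.17. Stk31, a germ cell kinase with a Tudor domain, went the other way and fell by 1.05. Klhl10, the spermatid substrate adaptor of a CUL3 ubiquitin ligase, was at 761, 821 and 626 CPM in KO RS and at 424, 422 and 455 CPM in KO MII (0.76, adjusted p = 0.00102). These calls held without any 1 library. Of the round spermatid markers, 4 of 22 were called higher and 0 lower (median 0.34), and 20 had a positive value. Without KO RS replicate 1 or without KO RS replicate 2 none of them was called, and 1 was without KO MII replicate 1, 2 or 3 and 2 without WT RS replicate 1. Elongating spermatid markers had 1 of 20 higher (5%, against 4.16% of all genes, median 0.15). The count was 0 without any 1 of the 3 KO RS libraries, KO MII replicate 2 or 3 or WT RS replicate 1.

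Among germ cell transcription regulators, 5 of 44 were higher and 2 lower (median 0.10). These shares were 11.4% and 4.55%, against 4.16% and 8.17% of all genes. Crem, the activator of many spermatid genes, was at 735, 771 and 713 CPM in KO RS and at 569.7, 767 and 612 CPM in KO MII, overlapping groups with a log2 fold change of 0.19 (adjusted p = 0.438). Rfx1, a regulator of ciliary genes, was at 101, 97.0 and 95.3 CPM in KO RS and at 64.9, 43.3 and 65.6 CPM in KO MII (0.75, adjusted p = 0.00496). Higher members numbered 2, 2 and 3 without KO RS replicate 1, 2 and 3, 2 without KO MII replicate 1, 2 or 3 and 3 without WT RS replicate 1. Lower members numbered 1 and 0 without KO RS replicate 1 and 2 and 1 and 0 without KO MII replicate 1 and 2.

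Protamine and transition protein transcripts were not called. Prm1, a protamine, was at 302, 257 and 214 CPM in KO RS and at 567, 252 and 348 CPM in KO MII (log2 fold change -0.59, SE 0.24, adjusted p = 0.117). Prm2, the other protamine, was at -0.32 (adjusted p = 0.323), and the transition proteins Tnp1 and Tnp2 were at -0.37 (0.300) and -0.25 (0.499). The groups overlapped in all 4 genes, which were chosen after their values were seen. Prm1 passed without KO MII replicate 2 (-0.83, adjusted p = 0.0302) and without a filter (0.00793). Without KO MII replicate 1, which had the highest Prm1 level among the KO libraries, Prm1, Prm2, Tnp1 and Tnp2 were at -0.20, -0.023, -0.019 and 0.015. Of the 37 tested genes for transition proteins, protamines and chromatin remodelling, 2 were higher and 6 lower (median -0.11). These shares were 5.41% and 16.2%, against 4.16% and 8.17% of all genes. Piwil1, an Argonaute protein of the piRNA pathway, was at 13.1, 10.2 and 12.0 CPM in KO RS and at 33.6, 28.0 and 32.9 CPM in KO MII (-1.42, adjusted p = 2.51e-05). Rnf8, a ubiquitin ligase of chromatin, and Baz1a, a remodelling subunit, fell by 1.56 and 0.88, and these 3 calls held without any 1 library.

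The chromatin list had 3 lower members without KO RS replicate 2. It had 1 higher member without KO RS replicate 1, KO RS replicate 2 or KO MII replicate 2, and leaving out KO MII replicate 1 gave 0. Of 23 histone genes 3 were lower (13%, against 8.17% of all genes) and 0 higher (median -0.27). Only 1 was lower without KO RS replicate 2 or 3 or KO MII replicate 2 or 3.

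Genes of RNA metabolism and translation were more often lower than higher, as were all genes tested. Of 84 tested cytosolic ribosomal protein genes, 16 were lower and 0 higher, and 79 had a negative value (median -0.22). Of 54 translation factors, 9 were lower and 2 higher (median -0.12). The shares called lower were 19% and 16.7%, against 8.17% of all genes. Eif1b, a paralogue of the start codon selection factor eIF1, was at 35.7, 33.1 and 42.0 CPM in KO RS and at 139, 136 and 138 CPM in KO MII (log2 fold change -1.90, SE 0.16, adjusted p = 7.6e-07), with a gap between groups far wider than the spread within either. Eif2b1, a subunit of the eIF2B exchange factor, fell by 1.84, and Eif4a2, a helicase of cap-dependent initiation, by 0.93. Rps27a, a ubiquitin fusion, fell by 1.21 and Rpl14 by 1.67.

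The largest fall among the ribosomal genes the rule named was that of Rps4x, an X-linked gene, at 1.03, 0.143 and 0.424 CPM in KO RS and at 8.13, 4.93 and 3.90 CPM in KO MII (-3.37, SE 0.48, adjusted p = 0.00016). Rpl10, also X-linked, fell by 1.21. Rpl36a and Rpl39, 2 more on the X chromosome that were chosen after their values were seen, were at -2.24 (adjusted p = 0.0137) and -1.98 (0.0225). Both calls were lost without KO RS replicate 2 (0.0861 and 0.105), KO RS replicate 3 (0.0535 and 0.0856) or KO MII replicate 1 (0.147 and 0.121). Ribosomal protein genes have many processed copies, so reads could be split between them and the levels are uncertain. The ribosomal list had 11 lower members without KO RS replicate 1, 7 without KO RS replicate 2 and 9 without KO MII replicate 1. Lower translation factors numbered 5, 4, 5 and 5 without KO RS replicate 1, KO RS replicate 2, KO MII replicate 2 and KO MII replicate 3, and higher ones 4 without WT MII replicate 3 and 0 or 1 without KO RS replicate 1, 2 or 3, KO MII replicate 1, 2 or 3 or WT RS replicate 1.

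Of the machinery that removes mRNA, deadenylation and decapping genes had 10 of 50 lower and 1 higher (median -0.19). In the exosome and nonsense-mediated decay list 8 of 33 were lower and 1 higher (median -0.34). The shares called lower were 20% and 24.2%, against 8.17% of all genes. Pan3, the partner of PAN2, was chosen after its values were seen and stood at 124, 138 and 141 CPM in KO RS and at 97.4, 94.6 and 110.2 CPM in KO MII, without overlap but not past the threshold (0.41, adjusted p = 0.112), though it passed with only the 6 KO libraries (0.0111), without a filter (0.0475) and without WT MII replicate 3 (0.0253). The lower members named by the rule act in decapping. Lsm3, of the LSM ring that binds deadenylated ends, was at 4.69, 3.19 and 3.56 CPM in KO RS and at 14.4, 14.8 and 16.5 CPM in KO MII (-1.99, SE 0.29, adjusted p = 0.000159), and Lsm6 of the same ring fell by 1.53. Edc4, a decapping scaffold, fell by 1.25, and Ddx6, a helicase of translational repression and decapping, fell by 1.07. Casc3 and Magohb, both of the exon junction complex, fell by 1.19 and 1.01, and Smg9, of nonsense-mediated decay, by 1.19. These 7 calls held without any 1 library. Lower members of the first list numbered 9 without KO RS replicate 1, 5 without KO RS replicate 2 and 6 without KO MII replicate 2. Those of the second numbered 3 and 4 without KO RS replicate 2 and 3 and 4 without KO MII replicate 1, 2 or 3. The 1 higher member of each list was not called without any 1 of the 6 KO libraries or WT RS replicate 1, and the first list had 3 without WT MII replicate 3.

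Among 40 poly(A) binding and polyadenylation genes, 2 were higher and 3 lower (median -0.03). These shares, 5% and 7.5%, were close to the 4.16% and 8.17% of all genes. Cstf2t, the testis form of a cleavage stimulation factor, was at 11.7, 10.8 and 15.1 CPM in KO RS and at 28.9, 28.8 and 27.5 CPM in KO MII (-1.18, adjusted p = 0.000263), and Papolg, a poly(A) polymerase, fell by 1.59. Translational control and RNA-binding genes had 13 of 61 lower and 2 higher (median -0.15). Rbm46, a germ cell RNA-binding protein needed in meiosis, was at 13.8, 13 and 14.3 CPM in KO RS and at 32.8, 40.6 and 38.3 CPM in KO MII (-1.44, adjusted p = 4.05e-05). Zfp36l1, which promotes decay of AU-rich mRNAs, rose by 0.86. Of 35 piRNA pathway and germ granule genes, 11 were lower and 1 higher (median -0.16). The shares called lower in the translational control and piRNA lists were 21.3% and 31.4%, against 8.17% of all genes. Tdrd5, a Tudor protein, was at 6.04, 3.65 and 3.56 CPM in KO RS and at 12.7, 12.1 and 16.3 CPM in KO MII (-1.62, adjusted p = 0.000224), and Prmt5, an arginine methylase of PIWI proteins, fell by 1.21. The genes given here by library had no overlap between RS and MII libraries. They were named for a small adjusted p in these same libraries, a choice that favours such a gap.

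Leaving out libraries moved these counts too. Translational control genes had 6, 3 and 8 lower members without KO RS replicate 1, 2 and 3 and 7 and 6 without KO MII replicate 1 and 2. Their higher members numbered 1 without KO RS replicate 1 or 2, KO MII replicate 1, 2 or 3 or WT RS replicate 1. The piRNA list had 8, 7 and 7 lower members without KO RS replicate 1, 2 and 3, while its higher members numbered 0 without KO MII replicate 2 and 2 without WT RS replicate 3 or WT MII replicate 1 or 3. The poly(A) list had 0 or 1 higher members without any 1 of the KO libraries or WT RS replicate 1, and 4 without WT MII replicate 3.

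**Figure D3:**
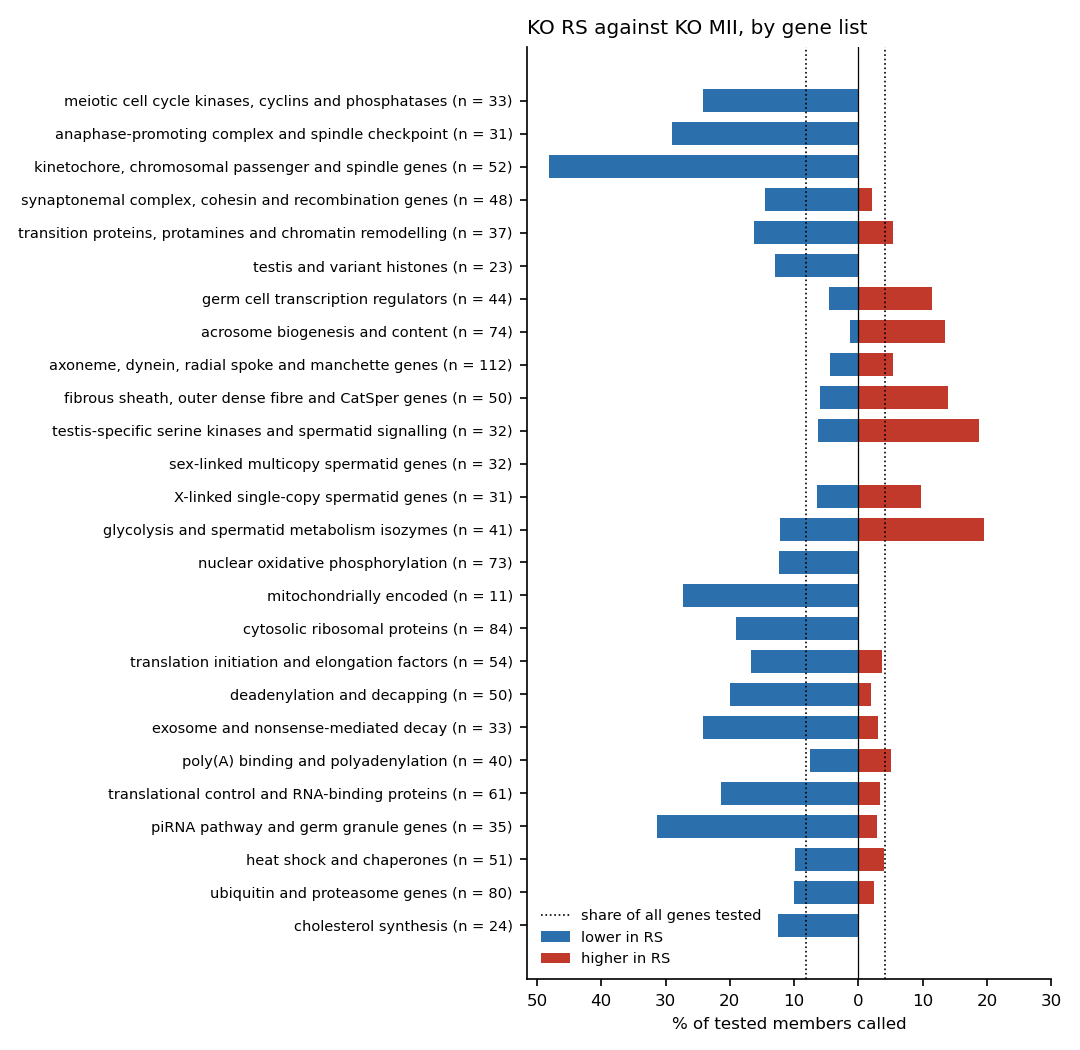
Share of tested members of each gene list called higher (red) or lower (blue) in KO RS than in KO MII, in percent, with dotted lines at the shares of all genes tested, 4.16% higher and 8.17% lower. The kinetochore and spindle list has the highest share of falls among the 26 lists drawn, 48.1%.

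Genes of energy metabolism moved in both directions. Slc2a3, the glucose transporter GLUT3, was at 149.7, 145 and 178 CPM in KO RS and at 497, 543 and 628 CPM in KO MII, well apart (log2 fold change -1.82, SE 0.19, adjusted p = 7.17e-06). In the list of glycolysis and spermatid isozymes, 8 of 41 genes were higher and 5 lower (median 0.01). These shares were 19.5% and 12.2%, against 4.16% and 8.17% of all genes. Aldoart1, an aldolase retrogene whose reads may be shared with Aldoa, was at 200.2, 209 and 179 CPM in KO RS and at 125, 133 and 133 CPM in KO MII (0.59, adjusted p = 0.0133), a call lost without KO RS replicate 2 (0.0767) or KO MII replicate 1 (0.0505). The rises of this list numbered 1, 0 and 5 without KO RS replicate 1, 2 and 3 and 4, 1 and 5 without KO MII replicate 1, 2 and 3. They numbered 5 when scaled by the total count. The falls numbered 2, 3 and 3 without KO RS replicate 2 and KO MII replicate 2 and 3.

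Of the nuclear oxidative phosphorylation genes 9 of 73 were lower (12.3%, against 8.17% of all genes) and 0 higher (median -0.16). Ndufc2, of complex I, was at 9.81, 7.02 and 8.81 CPM in KO RS and at 31.5, 28.0 and 27.4 CPM in KO MII (-1.76, SE 0.18, adjusted p = 6.91e-06). Sdhd, of complex II, fell by 1.55 and Uqcrc2, of complex III, by 0.77. Mitochondrially encoded genes had 3 of 11 lower (27.3%) and 0 higher (median -0.64). Of these mt-Co1 was at 1057, 855 and 902 CPM in KO RS and at 1411, 1637 and 1352 CPM in KO MII (-0.65, adjusted p = 0.0155), a call lost without KO RS replicate 2 (0.0967), KO RS replicate 3 (0.0568) or KO MII replicate 2 (0.0741). Mitochondrial transcripts made up 0.344%, 0.252% and 0.301% of counts in KO RS and 0.469%, 0.436% and 0.380% in KO MII. The nuclear list had 4, 3, 5 and 5 lower members without KO RS replicate 1, KO RS replicate 2, KO MII replicate 1 and KO MII replicate 2. The mitochondrial list had 0 without KO RS replicate 2 or 3, 1 without KO MII replicate 1 or 2 and 5 without KO MII replicate 3.

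Of 24 cholesterol synthesis genes 3 were lower and 0 higher (median -0.39). Msmo1, a sterol demethylase, was at 2.64, 3.37 and 2.54 CPM in KO RS and at 11.6, 8.18 and 5.47 CPM in KO MII (-1.56, adjusted p = 0.00131). Heat shock and chaperone genes had 5 of 51 lower and 2 higher (median -0.09). Hsp90b1, the chaperone of the endoplasmic reticulum, fell by 0.74 and Cct8, of the cytosolic chaperonin, by 0.77. Hsf2, a heat shock factor of the testis, was at 107, 111 and 108 CPM in KO RS and at 69.8, 72.8 and 63.4 CPM in KO MII (0.66, adjusted p = 0.00967). Ubiquitin and proteasome genes had 8 of 80 lower and 2 higher (median -0.01). The shares called lower in the cholesterol, chaperone and ubiquitin lists were 12.5%, 9.8% and 10%, against 8.17% of all genes. The shares called higher were 0%, 3.92% and 2.5%, against 4.16% of all genes. The chaperone and ubiquitin shares were thus close to those of all genes. Psma8, the germ cell form of a proteasome core subunit, was at 47.9, 43.5 and 44.5 CPM in KO RS and at 81.5, 106 and 85.9 CPM in KO MII (-1.01, adjusted p = 0.000499). In the genes of this paragraph given by library the groups were apart, which their choice by a small adjusted p favours. Chaperone falls numbered 2, 3 and 3 without KO RS replicate 2, KO RS replicate 3 and KO MII replicate 1, and chaperone rises 1 without any of these, KO MII replicate 2 or WT RS replicate 1 and 4 without WT MII replicate 3. Ubiquitin falls numbered 5 without KO RS replicate 2 or KO MII replicate 2, and ubiquitin rises 6 without WT MII replicate 3 and 1 without KO RS replicate 1 or 2, without any of the KO MII replicates, or without replicate 1 of WT RS or of WT MII. Cholesterol rises numbered 1 without WT MII replicate 3.

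The largest fall among the genes named by the rule was that of Hsd3b1, a Leydig cell marker, while the lists of other somatic cells moved less. Of 15 Leydig cell markers, genes of the steroid-making cells outside the tubule, 11 were lower and 0 higher, with a median of -4.52, and 12 were lower without KO RS replicate 1. Their summed level was 73.5, 66.1 and 48.2 CPM in KO RS and 321, 188 and 182 CPM in KO MII. Scarb1, a member that was not called, was the most counted Leydig marker in KO RS. It held 4013 counts in the KO RS libraries and 2774 in the KO MII libraries, so the KO RS sum rests largely on it. Insl3, a peptide hormone of Leydig cells with 64.8% of its exon bases also in Jak3, was at 1.80, 1.90 and 0.0847 CPM in KO RS and at 79.0, 33.7 and 38.2 CPM in KO MII (log2 fold change -5.27, SE 0.72, adjusted p = 0.00254). Hsd3b1, a steroid dehydrogenase, was at 0.193, 0.430 and 0.0847 CPM in KO RS and at 20.8, 9.65 and 15.4 CPM in KO MII (-5.96, adjusted p = 6.74e-07), and Star, the carrier of cholesterol into mitochondria, fell by 3.03. The marker Klk1b24 had 0 counts in KO RS. Insl3 and Hsd3b1 were thus at 1.90 CPM or below in every KO RS library and at 9.65 CPM or above in every KO MII library.

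Peritubular, endothelial and stromal markers had 7 of 16 lower and 0 higher (median -0.88), with summed levels of 240, 228 and 198 CPM in KO RS and 278, 189 and 217 CPM in KO MII. The sums overlapped, and Actg2, a member that was not called, held 16004 counts in the 3 KO RS libraries and 11493 in the 3 KO MII libraries. With WT RS replicate 2 or 3 or KO MII replicate 3 left out, 1 member was higher. Dcn, a proteoglycan of connective tissue, was at 1.22, 0.358 and 3.39 CPM in KO RS and at 67.6, 27.4 and 42.2 CPM in KO MII (-4.82, adjusted p = 0.00734), and Col1a2, a collagen chain, fell by 3.28. For Sertoli cells, the nurse cells of the tubule, the summed level was 347, 57.4 and 89.7 CPM in KO RS and 465, 236 and 112 CPM in KO MII. Of their 21 genes 1 was lower (4.76%, against 8.17% of all genes, median -0.48). Without KO RS replicate 1, where the sum was highest among RS libraries, 4 were lower. The count was 2 without KO MII replicate 3 and 0 without KO RS replicate 2 or 3, KO MII replicate 1 or 2 or WT MII replicate 1 or 3. Amh, a listed gene known mainly from immature Sertoli cells, had 0 counts in every library, whereas Clu had 6329 counts in KO RS and 10047 in KO MII.

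Macrophage, leukocyte and blood markers had 0 of 10 called by edgeR, DESeq2 or limma-voom (1 at an unadjusted p under 0.05, median -0.11), with sums of 36.6, 29.8 and 26.2 CPM in KO RS and 45.8, 31.2 and 26.5 CPM in KO MII. Hba-a1 and Hbb-bt were at 0 throughout. Spermatogonia markers had 1 of 15 lower (6.67%, against 8.17% of all genes), Id4 (-1.28), and 3 were lower without KO RS replicate 1. Of the 15, 11 had a negative value, with a median of -0.80 against -0.01 over all genes. At an unadjusted p under 0.05 in edgeR's test were 7 of the 15, against 5733 of all 21291 genes tested. The spermatogonia sums were 69.1, 57.6 and 50.8 CPM in KO RS and 74.8, 50.8 and 49.7 CPM in KO MII. Other genes named by the rule were lower in KO RS too. Akr1cl, an aldo-keto reductase, was at 2.38, 1.61 and 0 CPM in KO RS and at 61.5, 37.5 and 34.1 CPM in KO MII (-5.00), and Ptgds, a prostaglandin synthase, fell by 4.4 and Aldh1a1, a retinaldehyde dehydrogenase, fell by 3.24. Gstm1 fell by 3.23 (adjusted p = 0.0217) but did not pass once KO MII replicate 1 (0.0633) or 2 (0.0517) was left out. KO RS replicate 1 had 31.6 CPM of Gstm1 against 4.30 and 4.57 CPM in the other two RS libraries. The part of somatic RNA in the falls described above was not tested.

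**Figure D4:**
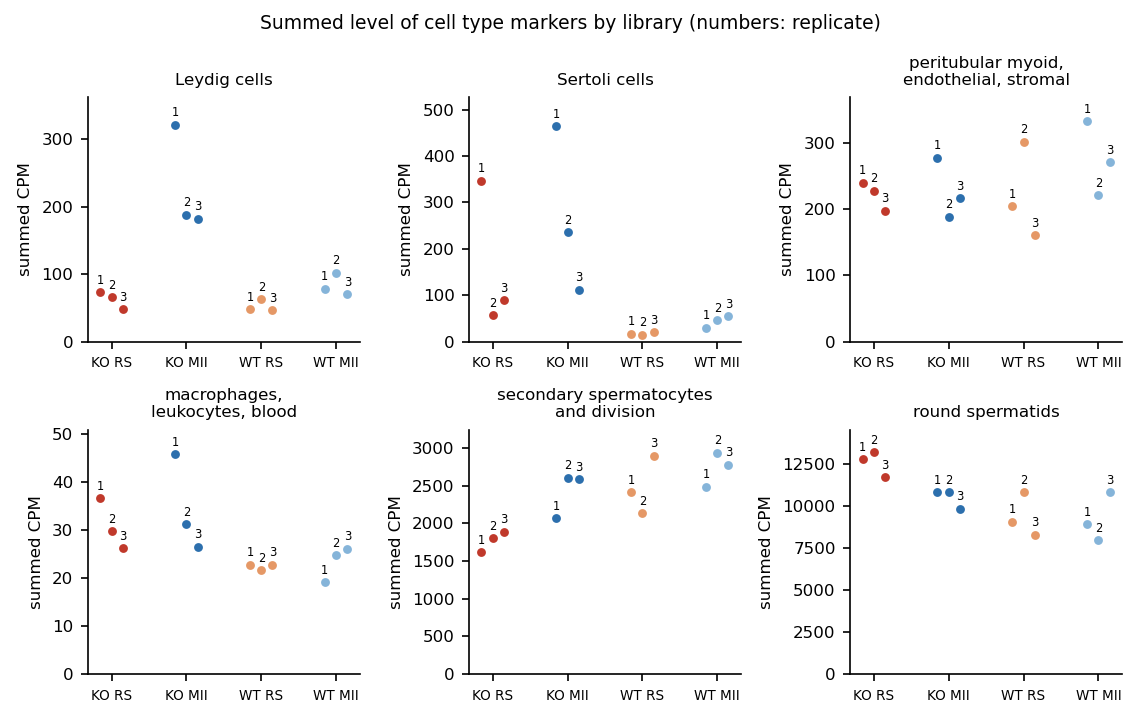
Summed CPM of 6 cell type marker lists in each library, with KO RS, KO MII, WT RS and WT MII from left to right and the replicate number above each of the 3 points of a group. In KO the Leydig sums are 48.2 to 73.5 in RS and 182 to 321 in MII, and the Sertoli sum of KO RS replicate 1 (347) is well above the other two RS libraries.

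The sex chromosomes are silenced in meiotic prophase and stay largely repressed in spermatids. On the X chromosome 33 of 790 tested genes were higher (4.18%) and 24 lower (3.04%), with a median of 0.16. On the autosomes 843 of 20205 were higher (4.17%) and 1712 lower (8.47%), with a median of -0.02. On the Y chromosome 9 of 281 were higher (3.2%, against 4.16% of all genes) and 0 lower (0%, against 8.17%), with a median of 0.51. Without KO RS replicate 1 the X chromosome had 11 higher and 31 lower genes (median 0.10) so that the balance turned on X, and the Y chromosome 2 higher (median 0.46). The multicopy spermatid genes of the sex chromosomes had 0 of 32 called by edgeR, DESeq2 or limma-voom (1 at an unadjusted p under 0.05, median 0.05), and 1 was lower without WT MII replicate 3. Their reads may be shared among near-identical copies. Ssty2, a Y-linked member and the one with the smallest adjusted p, was at 6.62, 6.41 and 5.29 CPM in KO RS and at 2.97, 4.85 and 4.08 CPM in KO MII (0.62, adjusted p = 0.139). Single-copy X-linked spermatid genes had 3 of 31 higher (9.68%) and 2 lower (6.45%), against 4.16% and 8.17% of all genes. There were 0 higher without KO RS replicate 1 or 2, KO MII replicate 1 or 3 or WT RS replicate 1, and 1 without KO RS replicate 3 or KO MII replicate 2. Of the lower ones, 3 were called without KO RS replicate 1 and 1 without KO RS replicate 2 or 3 or KO MII replicate 1 or 2.

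The stage change was then set beside that of WT cells. In WT, 3497 genes passed the threshold (16.4%), with 1648 higher (7.74%) and 1849 lower (8.68%) in RS. The 2 comparisons share no library. Of the KO falls, 987 were also WT falls, 56.7% of the KO list and 53.4% of the WT list. Of the KO rises, 568 were also WT rises, 64.2% of the KO list and 34.5% of the WT list, and 0 genes were called in opposite directions. Across the 21291 genes the log2 fold changes correlated at r = 0.624, as a description over genes that share libraries. WT calls numbered 1776, 2207 and 2010 without WT RS replicate 1, WT RS replicate 2 and WT MII replicate 3.

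Some of the genes described above fell in both genotypes. Cdk1, Ndc80 and Ube2t had log2 fold changes of -2.18, -2.02 and -3.03 in KO, against -1.55, -1.67 and -2.47 in WT, all past the threshold. Bub1b and Cdkn2d were called in KO and not in WT (-0.48, adjusted p = 0.0986, and -0.44, adjusted p = 0.110). Kinetochore and spindle genes had 25 of 52 lower in KO and 13 of 52 in WT, and 7 in WT without WT RS replicate 1. Checkpoint genes had 9 of 31 lower in KO and 7 in WT, and the meiotic kinase list 8 of 33 lower in KO and 4 lower and 3 higher in WT. Oxidative phosphorylation genes of the nucleus numbered 9 of 73 lower in KO and 38 of 73 in WT, and ribosomal protein genes 16 of 84 in KO and 40 of 84 in WT. Both WT counts fell with certain single WT libraries left out, in fits that hold fewer libraries. In place of 38 there were 7, 20 and 11 without WT RS replicate 1, WT RS replicate 2 and WT MII replicate 3, and in place of 40 there were 9 and 18 without WT RS replicate 1 and 2. The oxidative phosphorylation genes summed to 11200, 11300 and 12300 CPM in WT RS and to 13300, 13100 and 18300 CPM in WT MII, so that WT MII replicate 3 stood apart. No gene of these lists was called in the test of the difference itself. That test called 1 gene among 21291 (0.00470%), with 1405 at an unadjusted p under 0.05 (6.6%). DESeq2 called 19 and limma-voom 0.

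The 1 gene was Acta2, smooth muscle actin and a member of the peritubular list, on chromosome 19 from 34241090 to 34255590. It was at 6.66, 5.01 and 4.07 CPM in KO RS and at 9.88, 5.19 and 5.25 CPM in KO MII, overlapping groups with a log2 fold change of -0.36 (adjusted p = 0.490). In WT it was at 3.40, 3.32 and 2.54 CPM in RS and at 51.3, 22.6 and 24.7 CPM in MII, far apart (-3.40, adjusted p = 4.37e-06). The difference between the changes was 3.04 (SE 0.44, adjusted p = 0.0269). The WT MII libraries, and not the KO RS or KO MII libraries, were the ones that stood away from the rest. The call was lost without any 1 of 7 libraries, namely KO RS replicate 2 (0.0843), KO MII replicate 2 (0.0988) and 3 (0.0566), WT RS replicate 1 (0.102), 2 (0.170) and 3 (0.215), and WT MII replicate 1 (0.0794). Myh11, the smooth muscle myosin of the same list, was at 0.193, 0.215 and 0.0847 CPM in KO RS and at 0.244, 0.131 and 0.607 CPM in KO MII. Its WT levels were 0.0572, 0.0620 and 0.150 CPM in RS and 6.29, 2.98 and 5.06 CPM in MII, and the difference of 4.84 did not pass the threshold (adjusted p = 0.173). Whether myoid cells contributed to this difference was not tested.

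Herpud1, of protein quality control at the endoplasmic reticulum, had one of the clearer unequal patterns and was chosen after its values were seen. It was at 19.7, 19.3 and 18.6 CPM in KO RS and at 46.9, 38.7 and 47.0 CPM in KO MII (-1.20, adjusted p = 6.08e-05). In WT it was at 56.8, 66.9 and 59.2 CPM in RS and at 53.4, 71.1 and 54.4 CPM in MII (0.03, adjusted p = 0.921). The difference of -1.23 did not pass the threshold (adjusted p = 0.173), but did with DESeq2 (0.000465), without a filter (0.00153) and without WT MII replicate 2 (0.0179). The KO RS libraries were below all 9 others.

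**Figure D5:**
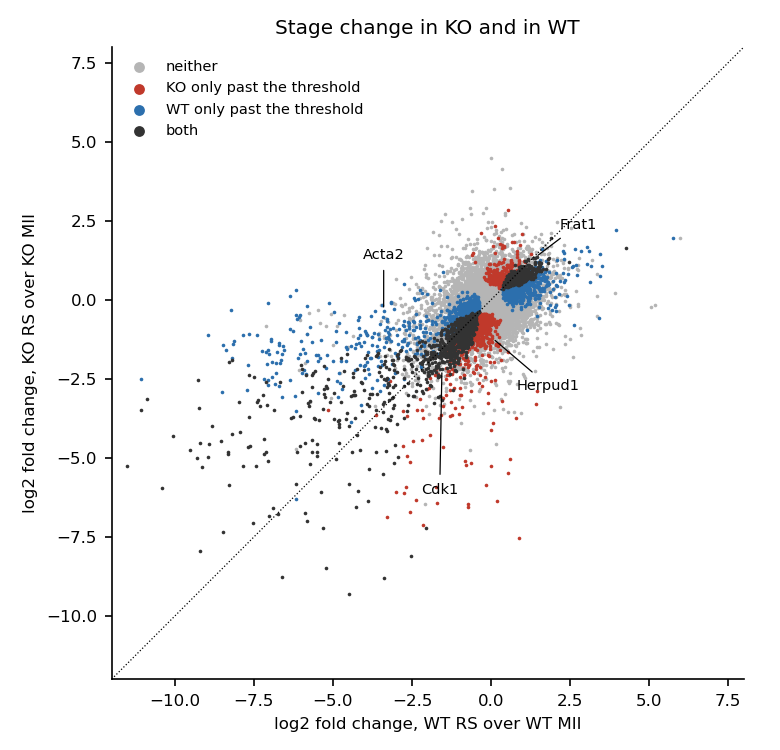
Log2 fold change of RS over MII in KO (vertical axis) against that in WT (horizontal axis) for the 21291 genes tested, coloured by which comparisons passed the threshold, with a line of equal change. Most called genes lie near the line or on the same side of 0, and Acta2 (KO -0.36, WT -3.40) is the 1 gene past the threshold of the difference.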

How the data were processed

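RNA from FACS-sorted testis cells was made into Smart-seq2 libraries with oligo(dT) priming and a Tn5-based kit and sequenced as paired reads, per the labels' protocols. The authors deposited a gene table of raw counts for 12 libraries, 3 in each of 4 groups. The submitters' processing notes list mm10 as the build and featureCounts 2.0.2, DESeq2, STAR 2.7.10a and Trim Galore 0.6.7 as tools, in no stated order. Annotation, strand setting and the handling of reads that map several times are not given in the sources used, so near-identical, antisense and overlapping genes are uncertain. Of 133 genes in the text's gene table, 15 shared at least 10% of their exon bases with exons of another gene (Sgo2a, Sycp3, Dnaaf3, Dnah3, Uqcrc2, Eif1b, Casc3, Magohb, Hsp90b1, Fabp3, Insl3, Akr1cl, Mphosph8, Naa80 and Ap2a1).

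The deposited counts entered the tests unaltered. Genes that passed filterByExpr of edgeR (count of at least 10, total of at least 15) were tested, with TMM scaling, in edgeR 4.0.16 (R 4.3.3) by the robust quasi-likelihood F test. All 12 libraries were fitted with 4 group means and 8 residual degrees of freedom, and the biological coefficient of variation was 22.28%. The contrasts were RS minus MII in KO, the same in WT, and the difference between them. P-values over all genes tested were Benjamini-Hochberg adjusted, with a threshold of 0.05. An SE was taken as the absolute log2 fold change over the square root of F. An exact permutation test of 1 gene with 3 libraries against 3 cannot go below p = 0.1, so none was used.

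Libraries of a group differed beyond sampling noise in every pair (chi-square per degree of freedom from 9.28 to 92.5). The 35 gene lists (26 of functions, 9 of cell types) and all comparisons were chosen with earlier results of these data known, so a list's count is a description. Named genes were Pan2, the 12 largest rises and 12 largest falls among genes called with and without KO RS replicate 1, averaging 20 CPM or more in the 6 KO libraries and with no overlap between groups, and up to 4 called members of each list with the smallest adjusted p. Predicted genes, clone names and pseudogene symbols were left out of the largest changes. For the difference the rule took up to 6 called genes each way at 5 CPM. The text gives a part of them, with 1 of the 12 rises not reported here, and marks those picked after seeing values. Alternatives were other scaling factors, filters and tools (DESeq2 1.42.0, limma-voom 3.58.1), a fold change of at least 2, a replicate block, only the 6 KO libraries, mitochondrial genes and the 10 most counted genes left out, and each library left out in turn. Promoters came from RefSeq (GRCm38.p6), matched by symbol for 13946 of the 21291 tested genes.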

Additional observations from a re-analysis of the deposited data

Results flagged for a closer look

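Acta2 differed in its stage change between the genotypes. The change was 3.04 higher on the log2 scale in KO than in WT (adjusted p = 0.0269 in edgeR's test of the difference). KO RS and KO MII libraries overlapped, and WT RS libraries lay below all WT MII libraries. Its adjusted p ranged from 3.83e-16 without a filter to 0.215 without WT RS replicate 3.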

How the results depend on the processing

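Calls of KO RS against KO MII kept their excess of falls in every alternative run. Of 122 genes of the text that were called, 93 kept the call under every one of the 21 alternatives in which they were tested. Under each of the 12 left-out libraries 94 kept it, and 0 changed sign in any alternative. Most of these genes were named for a small adjusted p or for being called with and without KO RS replicate 1, which favours keeping a call. Of all main calls, 39.8% of the rises and 65% of the falls were called again without KO RS replicate 1. Requiring a 2-fold change left 1055 genes (88 higher, 967 lower) in KO and 1312 in WT. Without a filter 1350 were higher in KO RS, and with only the 6 KO libraries 4451 were called, 2074 of them higher. The cause of that increase was not tested. With a library left out the KO total ranged from 1096 to 3286, the rises from 225 to 1262, the falls from 871 to 2024, and the WT total from 1776 to 3980. The difference between genotypes had 65 calls without a filter, 0 at 5 CPM in 3 libraries, 19 with DESeq2, 0 with limma-voom, 3 with the replicate block and 0 to 2 with a library left out. Its 1 gene, Acta2, lost the call at 5 CPM (0.0771) and with limma-voom (0.0645).

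Values that turned were those of genes not called. With a library left out, Pan2 ranged from -0.52 to 1.20 in KO and from -0.042 to 1.68 in the difference, Tnp2 from -0.42 to 0.015 in KO and Acta2 from -0.57 to 0.033 in KO. The signs turned for Pan2 without KO RS replicate 1 and for the other two without KO MII replicate 1.

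The replicate numbers were shared between groups, but same-numbered KO libraries deviated together only in part (r = 0.287, 0.0836 and 0.155), and KO RS replicate 2 correlated best with KO MII replicate 3. With the replicate block 2527 genes were called, 797 higher and 1730 lower. Depth limits genes with few counts, whose fold changes depend on the prior count where a group has none.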
